A study of Mus musculus with 6 samples.

Results

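Prox1, Mylk3 and Atoh1 are 3 genes selected on the readout itself: each carries a Sox6 peak among the highest over input in the list of peaks common to both Sox6 experiments, and was described as low in Pol II. Whether Pol II was low at Prox1 depends on the measure. Its level was far below that of the β-actin gene and no Pol II peak lay in it. Its gene body stood at percentile 69.7 of Pol II over input among the genes tested. A level below β-actin and the lack of a peak are not particular to Prox1. The β-actin gene stood at percentile 99.96 of the same ratio. Only 12.8% (replicate 1) and 17.9% (replicate 2) of all genes held a Pol II peak. Prox1, Mylk3 and Atoh1 are 3 of 22921 annotated genes with a RefSeq name, and 3 of 867 genes to which a common Sox6 peak was assigned. Together they hold 4 of the 1066 common peaks, 2 in Prox1 and 1 each for Mylk3 and Atoh1. The 6 libraries fall into 3 groups of 2: Sox6 ChIP, RNA polymerase II (Pol II) ChIP and input DNA. All came from wild type C57BL/6 myotubes, made from limb muscle myoblasts of E18.5 fetuses by 48 h in medium with 2% horse serum, at a labelled passage number of 17. No group lacks Sox6 and none has another treatment or age, so each comparison is between an immunoprecipitate and input in cultured cells. The replicates are independent ChIP experiments.

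Sox6 is an HMG-box transcription factor without an activation or repression domain of its own, and it is known in skeletal muscle for holding down slow fibre genes. Prox1 encodes a homeodomain transcription factor known for lymphatic endothelium, lens, liver and slow muscle. Mylk3 encodes the cardiac myosin light chain kinase, which phosphorylates the ventricular regulatory light chain, and Atoh1 encodes a proneural basic helix-loop-helix factor of hair cells, cerebellar granule cells and intestinal secretory cells. A read was counted where its 5′ end lay, and the level of a peak is the number of reads in a 450 bp window around its centre, scaled to reads per 1000000 mapped reads of the library (RPM). The libraries held 2985437 and 1468604 reads (Sox6), 1538757 and 2762155 reads (Pol II) and 21973495 and 24249850 reads (input). The labelled cell type was checked against its markers: all 6 myotube genes examined (Myh3, Acta1, Ckm, Myog, Tnnt3 and Des) had more Pol II than input (limma, adjusted p under 0.05; 40.5% of all genes), with levels of 2.73 to 73.3 RPM per kb of gene (RPKM) in replicate 1 and 2.66 to 77.8 in replicate 2.

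The sequence at the centre of each common peak is given first, since the 4 sites differed in the motifs they hold. Each is the plus strand of NCBI Build 37 (mm9), reaching 100 bp to the left and right of the centre, with capitals at the letters of the Sox motif (ACAAAG or ACAATG) and of the E-box (CAGCTG or CAGGTG), read on both strands.
Prox1, strongest peak, chr1:191952681-191952880: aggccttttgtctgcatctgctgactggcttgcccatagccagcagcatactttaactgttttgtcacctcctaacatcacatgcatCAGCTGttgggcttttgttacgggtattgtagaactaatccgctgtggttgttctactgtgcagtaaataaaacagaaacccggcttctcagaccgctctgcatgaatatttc
Prox1, the other common peak, chr1:191956951-191957150: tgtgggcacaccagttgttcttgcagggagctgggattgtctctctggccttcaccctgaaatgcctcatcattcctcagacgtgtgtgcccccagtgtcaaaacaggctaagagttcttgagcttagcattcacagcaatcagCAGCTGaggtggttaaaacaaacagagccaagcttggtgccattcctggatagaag
Mylk3, chr8:87904611-87904810: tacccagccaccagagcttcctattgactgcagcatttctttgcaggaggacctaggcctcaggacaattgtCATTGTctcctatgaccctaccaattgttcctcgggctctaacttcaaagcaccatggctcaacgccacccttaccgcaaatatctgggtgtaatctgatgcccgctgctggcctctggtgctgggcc
Atoh1, chr6:64751001-64751200: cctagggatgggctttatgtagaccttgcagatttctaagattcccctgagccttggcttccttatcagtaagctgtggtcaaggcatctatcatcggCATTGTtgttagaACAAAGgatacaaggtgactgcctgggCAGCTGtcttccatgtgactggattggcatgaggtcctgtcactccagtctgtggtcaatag

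The Atoh1 sequence held 2 Sox motifs, on opposite strands, which start 2 bp before and 11 bp after the peak centre, and an E-box 38 bp after it. The Mylk3 sequence held 1 Sox motif, 28 bp before the centre, and no E-box. Neither Prox1 sequence held ACAAAG or ACAATG on either strand. The paper took its Sox motif from a motif-finding program and not from exact letters. The lack of these letters is therefore not the lack of a Sox motif in the paper's sense. Each of the Prox1 sequences held 1 CAGCTG, which starts 13 bp before the centre at the strongest peak and 44 bp after it at the other. Of all 1066 common peaks, 58.4% held a Sox motif within the same 200 bp and 15.6% held 2 or more, while 66.4% held an E-box. The Runx letters CCACA were found once at the strongest Prox1 peak, once at the other Prox1 peak, 2 times at Atoh1 and not at Mylk3, against 68.9% of common peaks with at least 1 match. The Tead letters GGAATG were found only at the other Prox1 peak of the 4, in 2 copies, against 28.4% of common peaks with a match, and the MEF2 letters (CTA and TAG with 4 bases between them) were at none of the 4, against 5.82%. Matches of different motifs did not overlap in any of the 4 windows. In the deposited peak intervals alone, the main setting planned, the other Prox1 peak held none of these letters and Atoh1 held 1 Runx match, while the Sox and E-box counts of the other 3 peaks were the same; 52.0% of common peaks then held a Sox motif and 55.5% an E-box. The GC content of the sequences was 45.5% and 50.5% in Prox1, 53.5% in Mylk3 and 48.5% in Atoh1, beside a median of 47.5% over the common peaks. A match is a description of letters in a window.

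Prox1 (ENSMUSG00000010175.6; chromosome 1, 191945660 to 191994559, minus strand, 5 exons) carried both of its common peaks in intron 4, the last intron, which spans 23.5 kb. The stronger lies from 191952722 to 191952841, with its centre 41.8 kb downstream of the annotated start, and the other from 191957022 to 191957081, 37.5 kb downstream. Their centres were 4.27 kb apart. At the stronger peak were 49 and 28 Sox6 reads in replicates 1 and 2 (16.4 and 19.1 RPM), against 2 and 5 input reads (0.0910 and 0.206 RPM). Both Sox6 libraries were far above both inputs. The log2 ratio of Sox6 over input was 6.80 (SE 0.47, limma over all common peaks, n = 2 and 2), the highest of the 1066 common peaks. With so few input reads the ratio is imprecise, and by Sox6 reads alone the same peak ranked 50 in replicate 1 and 49 in replicate 2. By the ratio to the input of the same number it ranked 4 and 5. At the other peak 22 and 14 Sox6 reads (7.37 and 9.53 RPM) stood against 5 and 11 input reads (0.228 and 0.454 RPM). Its log2 ratio was 4.65 (SE 0.47), rank 102. These ratios chose the genes and are given as descriptions, without a test.

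Mylk3 (ENSMUSG00000031698.8; chromosome 8, minus strand) has annotated models with different starts, and where its peak lies depends on which is used. The common peak, 87904642 to 87904781, is centred 166 bp downstream of the start of the longest model (87848346 to 87904877, 13 exons), and 24 of its 140 bp lie in the first exon of that model while 116 bp lie in the first intron. The model with a consensus coding annotation starts at 87889223, so that the same peak is 15.5 kb upstream of it. Its level was 52 and 31 Sox6 reads (17.4 and 21.1 RPM) against 8 and 5 input reads (0.364 and 0.206 RPM). Sox6 was again far above input in both experiments, with a log2 ratio of 6.03 (SE 0.45), rank 8 of 1066. In replicates 1 and 2 it ranked 46 and 39 by Sox6 reads, and 27 and 3 by the ratio to the input of the same number. Within 1 kb of the consensus start, Sox6 held 5 and 0 reads and input 18 and 16, whereas within 1 kb of the start of the longest model Sox6 held 66 and 33 reads and input 33 and 34, and 52 and 31 of these Sox6 reads are those of the peak window. A short model starts further upstream, at 87910244, and Sox6 held 5 and 2 reads within 1 kb of it against 22 and 30 of input. The Sox6 reads of the peak were thus at the start of the longest model and at neither the consensus start nor the one furthest upstream.

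Atoh1 (ENSMUSG00000073043.4; chromosome 6, 64679140 to 64681227, plus strand, 1 exon) was the nearest annotated gene to an intergenic peak at 64751042 to 64751161. The peak is centred 69.9 kb beyond the end of the gene and 72.0 kb from its start, so that it is assigned to Atoh1 by distance alone. The level was 71 and 40 Sox6 reads (23.8 and 27.2 RPM) against 7 and 9 input reads (0.319 and 0.371 RPM). This was the highest Sox6 level of the 4 peaks in each replicate. Its log2 ratio of 6.14 (SE 0.44) ranked 5, below that of Prox1 because its window held more input reads. In replicates 1 and 2 it ranked 28 and 25 by Sox6 reads, and 9 and 6 by the ratio to the input of the same number. Around the Atoh1 start itself, within 1 kb, Sox6 held 5 and 0 reads and input 13 and 30, with a log2 ratio of -0.15 (SE 0.84).

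The selection names no threshold. The peak just below that of Mylk3, at rank 9, was assigned to Psmg2 with a log2 ratio of 6.00, and the median of all common peaks was 3.52. The strongest peaks of Prox1, Mylk3 and Atoh1 lay between 6.03 and 6.80 with SEs of 0.44 to 0.47, so their order among themselves was not resolved.

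**Figure D1:**
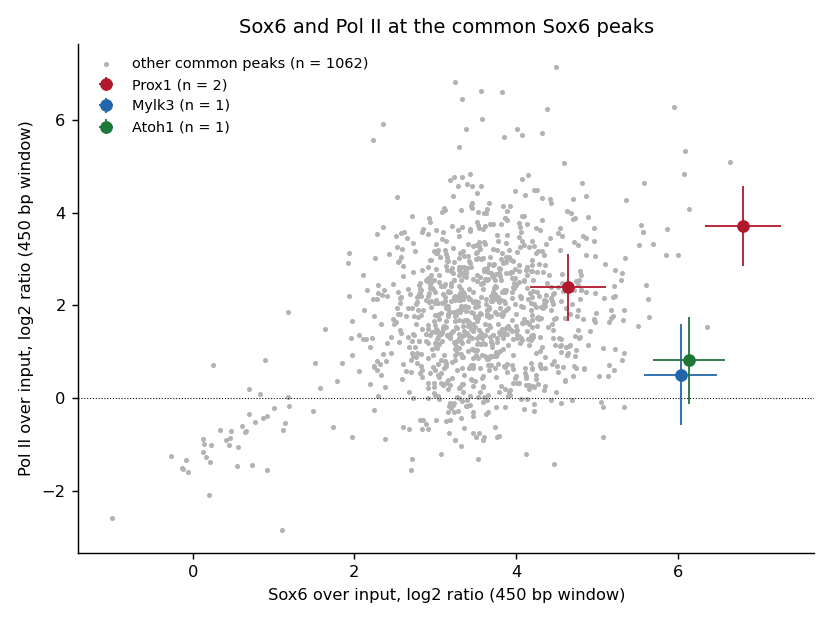
Each point is a common Sox6 peak, placed by the log2 ratio of Sox6 over input (x axis) and of Pol II over input (y axis) in its 450 bp window. Coloured points with SE bars are the peaks of Prox1, Mylk3 and Atoh1. The strongest peaks of the 3 genes lie at the right edge, at 6.03 to 6.80, and the strongest Prox1 peak lies above the other 2 on the Pol II axis (3.71 against 0.50 and 0.81), where both axes share the same input reads. Reads added to each count shift the Pol II axis upward.

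The reads of all 4 peaks had the strand order of a ChIP fragment centre. The peaks were called from these same reads, so the order is a description and not a test of them. The median 5′ end of Sox6 reads on the reverse strand lay downstream of that on the forward strand by 211.5 and 132 bp at the strongest Prox1 peak in replicates 1 and 2, by 177 and 231 bp at the other, by 175 and 195.5 bp at Mylk3 and by 144.5 and 153 bp at Atoh1. Both strands were filled at each, with 27 forward and 22 reverse reads at the strongest Prox1 peak in replicate 1 and 13 and 15 in replicate 2. Atoh1 in replicate 2 was the least even, with 12 forward and 28 reverse reads. The enrichment was also narrow. The 450 bp window held 96.2% of the Sox6 reads of the surrounding 1000 bp at the strongest Prox1 peak, 97.4% at Atoh1, 87.4% at Mylk3 and 85.7% at the other Prox1 peak. Counting each position once left 43 and 26 Sox6 reads at the strongest Prox1 peak, 45 and 28 at Mylk3 and 57 and 37 at Atoh1. The share of Sox6 reads at repeated positions was thus 12.2% and 7.14% at the strongest Prox1 peak, 13.5% and 9.68% at Mylk3 and 19.7% and 7.50% at Atoh1, above the 7.88% and 3.60% of the whole Sox6 libraries. At the other Prox1 peak it was 18.2% in replicate 1 and 0% in replicate 2. Each peak stood far above input with repeats counted once.

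**Figure D2:**
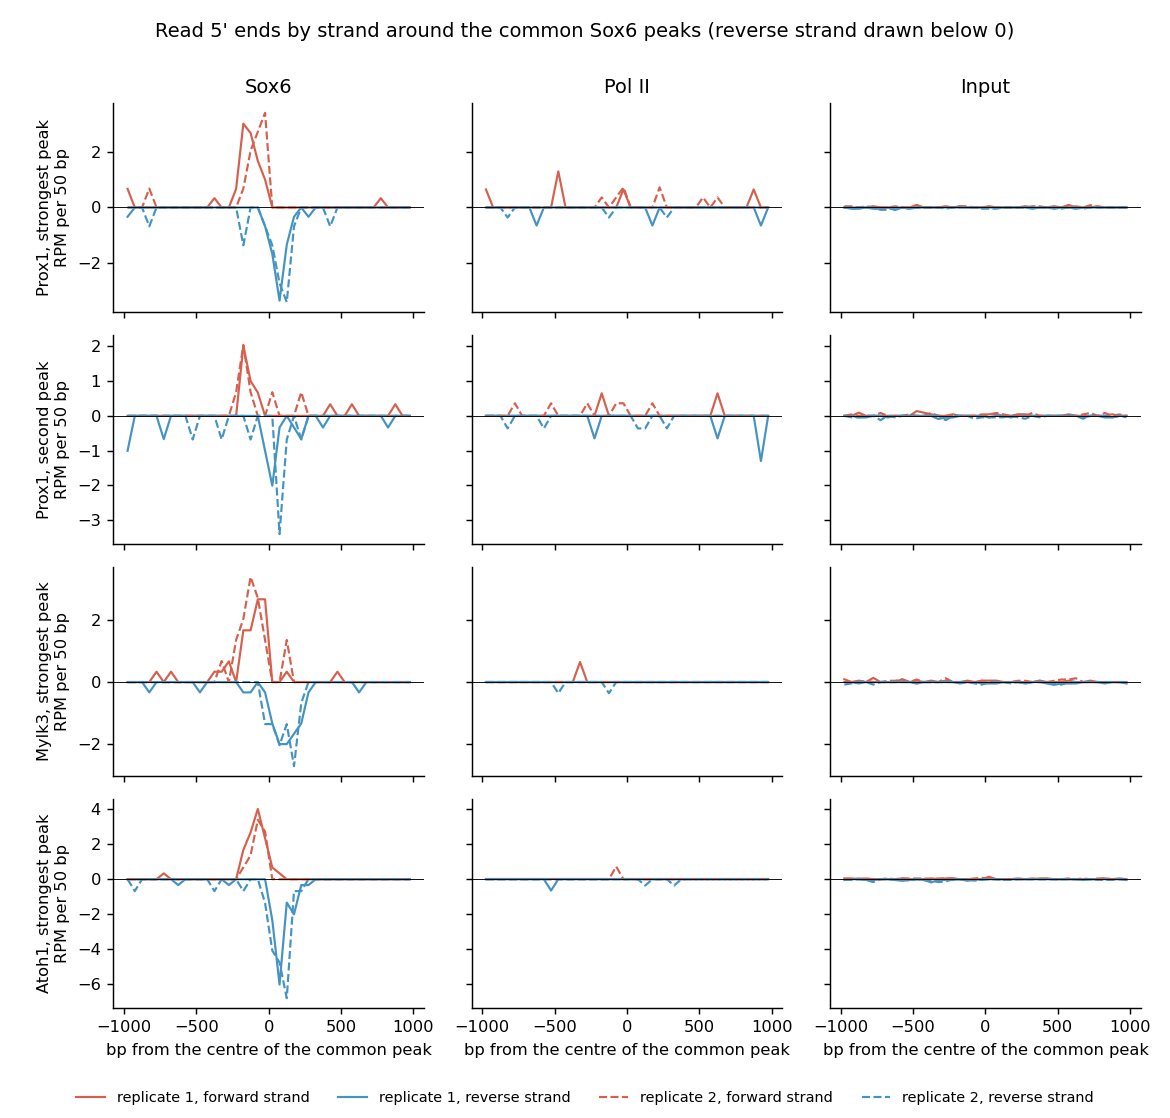
Read 5′ ends per 50 bp, in RPM, are plotted against the distance from the centre of each common peak for Sox6, Pol II and input, forward strand above 0 and reverse strand below, replicate 1 solid and replicate 2 dashed. In the Sox6 column forward reads lie left of reverse reads at all 4 peaks, by 132 to 231 bp between strand medians, while input stays near 0 on the same axis.

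The surroundings of the sites were scanned for other Sox6 reads. The 100 kb on each side of each gene model was cut into 450 bp windows, and the windows around every called peak were set aside, those of the common peaks and that of a further Prox1 peak called in replicate 1 only, which is described next and held 14 and 7 Sox6 reads. In the remaining windows the median held 0 Sox6 reads in both replicates at each of the 3 genes. The highest counts in such a window were 5 Sox6 reads in replicate 1 and 2 in replicate 2 around Prox1 (545 windows), 5 and 4 around Mylk3 (568 windows), and 7 and 3 around Atoh1 (447 windows). Of these remaining windows, only 1 reached 2 RPM in both replicates, and it lies 70.3 kb from the Atoh1 start, just before the peak, with 7 and 3 Sox6 reads and 9 reads in each input. At the intergenic control region of the study's ChIP-qPCR primers (chromosome 14, 55921902 to 55921999), 0 and 1 Sox6 reads stood beside 8 and 5 of input.

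The list of each experiment alone added 1 site. In replicate 1, a 500 bp peak was called from 191951052 to 191951551, in the same Prox1 intron and 1.48 kb from the strongest peak, and it was not called in replicate 2. Its window held 14 Sox6 and 4 input reads in replicate 1, which called it. In replicate 2, which did not, it held 7 Sox6 reads (4.77 RPM) and 2 input reads (0.0825 RPM), a log2 ratio of 5.63 (exact two-sided binomial test against the library totals, adjusted p = 7.97e-06 over the 1859 peaks called in replicate 1 that overlap no common peak). Of those 1859 peaks 49.7% passed the same test in replicate 2, so that passing it in this window is common for such peaks and not particular to the Prox1 site. In the deposited peak interval alone 11.6% passed, the Prox1 site among them. The test covers counting error of 2 libraries only. In replicate 1, whose reads called the site, reverse reads lay 129 bp downstream of forward reads, which is no separate test. The strand order of a ChIP fragment was not seen in replicate 2 (-50 bp, on 5 forward and 2 reverse reads). Counting this peak, Prox1 had 3 called Sox6 sites within 5.75 kb of its last intron. Having 2 or more common peaks within 100 kb of the gene model was true of 2.09% of all genes, and having at least 1 of 11.5%. Prox1 was chosen for a common peak, so having at least 1 was fixed beforehand and these shares do not measure how rare its sites are. Of the 867 genes with an assigned common peak, 107 had 2, as Prox1 did, and 31 had 3 or more.

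The study's own ChIP-qPCR primers for Prox1 lie beside these common peaks, and their sequences are shown because they place each amplicon. Lower-case letters are the oligos as designed, 5′ to 3′.
Prox1 amplicon 1, forward: ttctgtgggcacaccagttg
Prox1 amplicon 1, reverse: gaggcatttcagggtgaagg
Prox1 amplicon 2, forward: tgctcgccttggagagagtt
Prox1 amplicon 2, reverse: gctatgggcaagccagtcag
Amplicon 1 (chromosome 1, 191956948 to 191957018) is 71 bp long, with its midpoint 68 bp from the centre of the weaker common peak, and 21 and 13 Sox6 reads stood in its 450 bp window beside 7 and 14 of input. Amplicon 2 (191952650 to 191952720), also 71 bp, has its midpoint 96 bp from the centre of the strongest peak, and 46 and 24 Sox6 reads stood in its window beside 3 and 6 of input. Neither amplicon overlaps the interval of its peak in the common list, while amplicon 1 overlaps the interval called in replicate 1. The paper reports that ChIP-qPCR with its primers verified Sox6 binding at the genes it discusses, Prox1 among them.

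**Figure D3:**
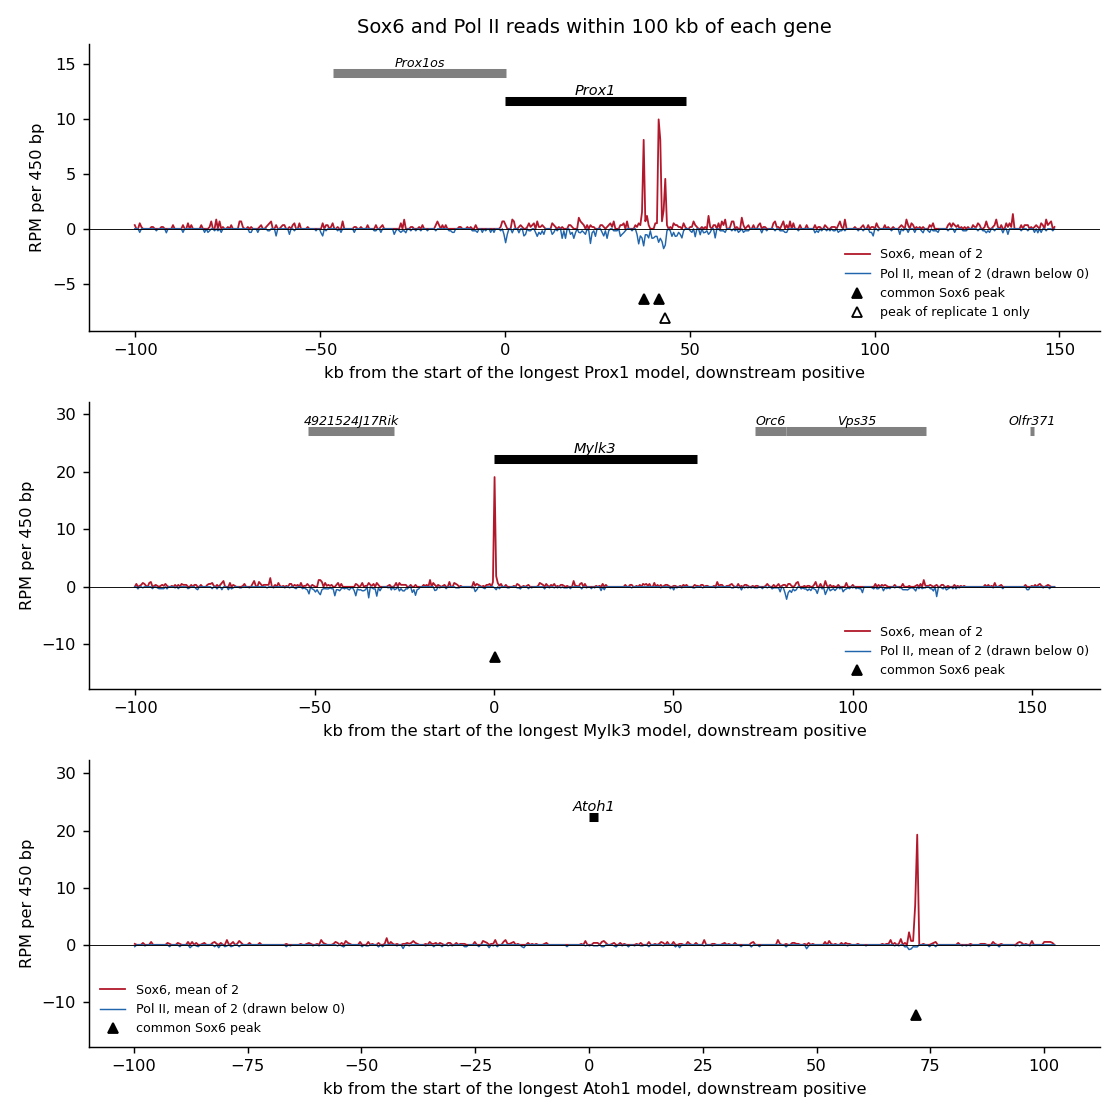
Reads per 450 bp window, in RPM and averaged over the 2 replicates, are plotted against the distance in kb from the start of the longest model of each gene, Sox6 above 0 and Pol II below. Black bars are the genes, grey bars the neighbours reported, filled triangles common Sox6 peaks and the open triangle the peak of replicate 1 only. Sox6 rises at 37.5 to 43.3 kb in Prox1, at the start of the longest Mylk3 model and 72.0 kb beyond the Atoh1 start, and Pol II is visible across Prox1 and its last intron but hardly at Mylk3 and Atoh1.

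Pol II was next compared with input at the same genes, as a measure of polymerase on the template. A lower value cannot tell fewer cells with polymerase on the gene from less polymerase per cell. No Pol II peak of either experiment lay within 100 kb of any of the 3 genes. The nearest was 158 kb (replicate 1) and 164 kb (replicate 2) from Mylk3, 336 kb and 337 kb from Prox1, and 1049.8 kb and 1048 kb from Atoh1. Of all genes, 54.1% had no Pol II peak of replicate 1 within the same 100 kb and 45.5% none of replicate 2, so that the lack of one is common.

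Pol II lay below input across Mylk3 and above it across Prox1, and gave no direction across Atoh1. Across the Mylk3 model Pol II held 9 and 32 reads (0.103 and 0.205 RPKM) and input 517 and 524 reads (0.416 and 0.382 RPKM). Both Pol II libraries lay below both inputs, with a log2 ratio of -1.40 (SE 0.28), at percentile 11.98 of the genes tested. Across Atoh1, a gene of 2.09 kb, Pol II held 0 and 4 reads and input 17 and 31, and the replicates differed so widely that the log2 ratio of -0.48 (SE 0.87) gives no direction: it was 0.68 without Pol II replicate 1 and -1.65 without Pol II replicate 2. Across Prox1 Pol II held 68 and 108 reads (0.904 and 0.800 RPKM) against 457 and 523 input reads (0.425 and 0.441 RPKM). Here both Pol II libraries lay above both inputs, with a log2 ratio of 0.98 (SE 0.12), at percentile 69.7. The median over the 19830 genes with at least 20 input reads was 0.16. The β-actin gene Actb, the study's reference for Pol II, stood at 26.4 and 35.8 RPKM, above all 3 genes in both replicates. The order of the log2 ratios was Prox1, Atoh1 and Mylk3, and Atoh1 did not differ from either neighbour in that order beyond its replicate spread.

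Reads were few at the starts, within 1 kb on each side. Pol II held 2 and 10 reads at the Prox1 start against 10 and 12 input reads, with a log2 ratio of 2.32 (SE 0.64) beside a median over all starts of 0.76. It held 1 and 2 reads at the start of the longest Mylk3 model against 33 and 34 input reads, and 0 and 1 at the consensus start against 18 and 16. At the Atoh1 start 0 and 2 Pol II reads stood against 13 and 30. Ratios at starts carry an upward shift, since 0.5 reads were added to each count and input is sequenced more deeply, and should be read against the median.

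Pol II was also counted at the Sox6 peaks themselves. The window of the strongest Prox1 peak held 2 and 7 Pol II reads (1.30 and 2.53 RPM) against 2 and 5 input reads, a log2 ratio of 3.71 (SE 0.86), rank 85 of 1066. The other Prox1 peak held 2 and 5 Pol II reads, a log2 ratio of 2.38 (SE 0.73), rank 335. The Mylk3 peak held 0 and 1 Pol II reads, a log2 ratio of 0.50 (SE 1.08), rank 881, and the Atoh1 peak 0 and 3, a log2 ratio of 0.81 (SE 0.94), rank 812. The median of the common peaks was 1.79, with an interquartile range of 0.88 to 2.67. The 0.5 reads added to each count shift these ratios upward as at the starts. At the Mylk3 peak Pol II stood at 0 and 0.362 RPM against 0.364 and 0.206 RPM of input, so its positive ratio is not read as Pol II above input. The Pol II ratios at the peaks share their input with the Sox6 ratios that chose the genes. The input of the strongest Prox1 peak, 0.0910 and 0.206 RPM, was below the median of the common peaks (0.501 and 0.536 RPM), whereas its Pol II level of 1.30 and 2.53 RPM lay on either side of the median (1.95 and 1.81 RPM), so its rank is not read as a high Pol II level.

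Within Prox1 the Pol II level differed between segments, on few reads and without a test. In 10 kb segments from the start, Pol II stood at 0.520 and 0.652 RPKM over the first 10 kb, 0.520 and 0.579 over the next, and 0.715 and 0.652 from 20 to 30 kb. It stood at 0.910 and 1.12 RPKM from 30 to 40 kb and at 1.97 and 1.02 from 40 kb to the end at 48.9 kb, where the Sox6 peaks lie. Input stayed between 0.359 and 0.533 RPKM in all 5 segments. Leaving out 1 kb around each of the 3 Sox6 sites, the last segments stood at 0.866 and 0.965 RPKM and at 1.32 and 0.787 RPKM. These values were above the first segments in each replicate, but on 12 and 24 and on 14 and 15 Pol II reads, beside 8 and 18 in the first segment. Whether the difference exceeds counting error was not tested. The log2 ratio of Pol II over input across the rest of the gene was 0.79. The segments were drawn after the locus had been seen. In Mylk3 no 10 kb segment exceeded 0.260 RPKM of Pol II in replicate 1 or 0.388 in replicate 2. Sox6 reads outside the sites were near the input across Prox1, with a log2 ratio of 0.25. In the Mylk3 segments, outside the peak window, Sox6 stood at 0.0670 to 0.502 RPKM in replicate 1 and 0.104 to 0.613 in replicate 2. Input there stood at 0.159 to 0.580 and 0.144 to 0.552 RPKM.

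Genes near the 3 loci were not part of the selection and were tested, apart from the start of Prox1os, which shares reads with the Prox1 start. Of the 5 neighbours reported, 4 had enough input reads for a test in the gene body, and Pol II was higher than input in 2 of them (limma, adjusted p under 0.05 over all genes), where 40.5% of all genes tested were higher and 25.6% lower. Both are neighbours of Mylk3. Vps35, which encodes a retromer subunit, held 50 and 76 Pol II reads (0.831 and 0.703 RPKM) against 437 and 471 input reads, a log2 ratio of 0.62 (SE 0.14, limma adjusted p = 0.00440). The uncharacterized gene 4921524J17Rik, 27781 bp upstream of Mylk3, held 34 and 84 Pol II reads (0.917 and 1.26 RPKM) against 351 and 359, a log2 ratio of 0.77 (SE 0.18, limma adjusted p = 0.00496). The count of 2 of 4 is near the share over all genes.

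Orc6, a subunit of the origin recognition complex, had 2 and 17 Pol II reads against 105 and 125, with the replicates on opposite sides of input. Its log2 ratio was -0.64 (SE 0.57, limma adjusted p = 0.351). Without Pol II replicate 2 the ratio was -1.62, and without Pol II replicate 1 it was 0.35. A fit with 1 Pol II library holds no spread between Pol II replicates, so only its ratio is given. Prox1os is a long non-coding RNA that starts 384 bp from the Prox1 start, inside the gene and on the other strand. It had 12 and 30 Pol II reads against 307 and 311, a log2 ratio of -0.50 (SE 0.21, limma adjusted p = 0.0661). It was called lower with centring (-0.71) or from 1 kb downstream of its start (-0.76), and its ratio was -0.72 without Pol II replicate 2. Olfr371, an olfactory receptor gene, held 0 and 0 Pol II reads against 9 and 8 input reads and was under the minimum.

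At the starts, Pol II was called higher than input at Vps35 and Orc6, where 40.1% of all starts tested were higher. Over all starts 8893 were higher and 304 lower, and with log2 ratios centred on the median of all genes 5576 and 2610. Vps35 had a log2 ratio of 2.48 (SE 0.43, limma adjusted p = 3.98e-08) and Orc6 of 2.28 (SE 0.44, limma adjusted p = 8.95e-07). The start of Prox1os stood at 2.88 (SE 0.72). Prox1 was chosen on its Pol II level, so the value at the Prox1os start is a description without a test and is not counted as a call. The window of Prox1os overlaps that of Prox1, and the starts of Vps35 and Orc6 are 119 bp apart, so that in both pairs the same reads were counted for each gene and the partners cannot be told apart. The start of 4921524J17Rik did not pass (log2 ratio 0.27, SE 0.48, limma adjusted p = 0.712), and its ratio was 1.25 without Pol II replicate 1. It did pass with 500 bp on each side (1.64). At the start of Olfr371 both Pol II libraries held 0 reads, against 21 and 16 input reads, and no ratio is given. None of the 5 neighbours had a common Sox6 peak assigned to it, where 3.78% of all genes had such a peak. The common peaks within 100 kb of each member were already assigned to that member, so this follows largely from how the neighbours were taken.

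**Figure D4:**
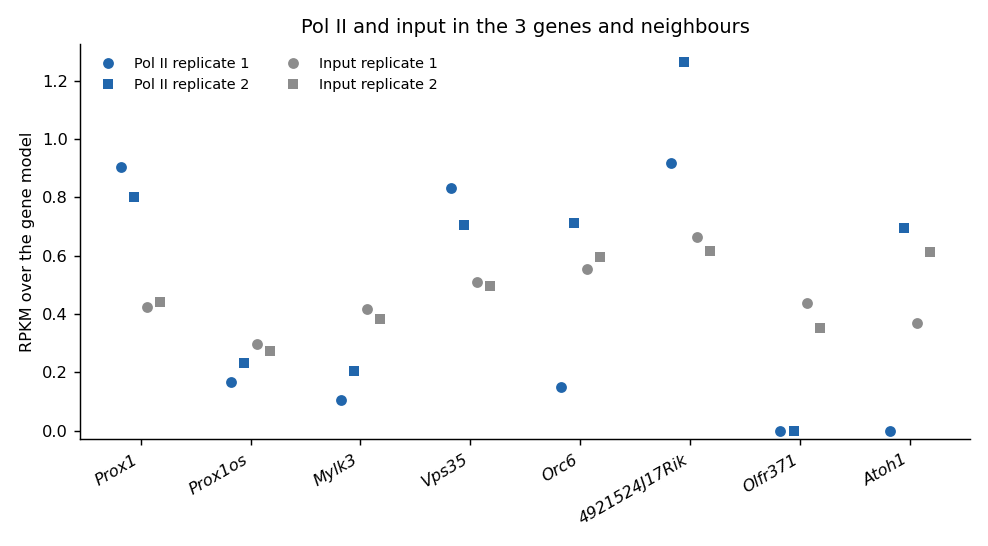
RPM per kb of gene model (RPKM) is shown for Pol II (blue) and input (grey) in each replicate, for Prox1, Mylk3, Atoh1 and the 5 neighbours reported. Pol II lies above input in both replicates in Prox1, Vps35 and 4921524J17Rik and below it in both in Mylk3, Prox1os and Olfr371.

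The partners of Mylk3 in myosin light chain phosphorylation were compared next. Of 15 genes for other light chain kinases, the light chain phosphatase, calmodulin and the light chains, 11 had more Pol II than input in the gene body and 0 less (limma, adjusted p under 0.05; 40.5% and 25.6% of all genes), with a median log2 ratio of 1.57 beside 0.16 over all genes. At an unadjusted p under 0.05 in the same limma fit, 0 of the 15 were lower. Mylpf, the fast skeletal regulatory light chain, stood at 62.5 and 73.7 RPKM with a log2 ratio of 6.08 (SE 0.14), and Myl1, the fast skeletal essential light chain, at 24.7 and 25.2 RPKM with 4.65 (SE 0.09). Among the kinases, named after their values were seen, Mylk4 stood at 2.46 and 2.52 RPKM and Mylk at 0.890 and 0.839, both higher than input, while the skeletal kinase Mylk2, at 0.444 and 0.556 RPKM, did not pass. A common Sox6 peak was assigned to 4 of the 15, Ppp1r12a, Myl2, Myl4 and Myl7, and to 3.78% of all genes. Their Pol II levels differed widely. Myl4, the atrial and embryonic essential light chain, stood at 26.5 and 27.4 RPKM (log2 ratio 3.74, SE 0.08) and Ppp1r12a, a subunit of the phosphatase, at 2.45 and 2.56 RPKM (log2 ratio 1.57, SE 0.07), both higher than input. Myl7, the atrial regulatory light chain, held 1 and 2 Pol II reads (log2 ratio 0.26, SE 0.64) and did not pass. Myl2, the slow and ventricular light chain that Mylk3 phosphorylates, held 7 and 2 Pol II reads against 101 and 134 input reads (log2 ratio -1.27, SE 0.69, limma adjusted p = 0.136). With the replicate number as a block, Myl2 was called lower (limma adjusted p = 0.0127). Its log2 ratio was -2.48 without Pol II replicate 1 and -0.05 without Pol II replicate 2. Its strongest peak had a Sox6 log2 ratio of 3.91, beside 6.03 for Mylk3.

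The proneural factors related to Atoh1 were taken as a list. Of 14 listed, 10 had enough input reads, and of these 0 had more Pol II than input (0 at an unadjusted p under 0.05 in limma) and 1 less, Neurod4, where 40.5% of all genes were higher and 25.6% lower. The number with less changed with a Pol II library left out. It is not given, since such a fit holds no spread between Pol II replicates. The median log2 ratio of the 10 was -0.99, or -0.59 with the 2 genes that held no Pol II reads set to the ratio that 3 reads would give. Only Atoh8, another relative of the atonal family, had a common Sox6 peak, 1 of 14 beside 3.78% of all genes, with a Sox6 log2 ratio of 5.58. Its Pol II level was 0.818 and 0.850 RPKM against 0.754 and 0.794 of input, a log2 ratio of 0.12 (SE 0.13, limma adjusted p = 0.427).

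Of 12 relatives and lymphatic or lens partners of Prox1, 11 could be tested, and 2 had more Pol II than input and 5 less (40.5% and 25.6% of all genes), with a median log2 ratio of -0.13. Both counts changed with a library left out, and are not given for such fits, which hold no spread within the group left with 1 library. The higher ones were Nr2f2, a nuclear receptor of veins and mesenchyme, at 1.69 and 1.21 RPKM (log2 ratio 1.50, SE 0.23, limma adjusted p = 0.000560) and the homeobox relative Prox2 at 1.16 and 1.37 RPKM (log2 ratio 1.03, SE 0.16, limma adjusted p = 0.000459). The 5 lower ones were Flt4, Lyve1, Tek, Nr5a2 and Hnf4a, with Lyve1 at a limma adjusted p of 0.0430. Other genes used in lymphatic vessels did not pass, with log2 ratios of 0.01 for Pdpn, 0.64 for Foxc2 and 0.55 for Gata2. Nr5a2, a nuclear receptor that binds Prox1 protein, was the only gene of this list with common Sox6 peaks, 1 of 12 beside 3.78% of all genes, and had 2, the stronger with a Sox6 log2 ratio of 4.63. Since Prox1 is used in endothelium, the endothelial markers are given beside it: all 4 (Pecam1, Cdh5, Kdr and Tek) had less Pol II than input, and their summed level was 0.820 and 0.746 RPKM for Pol II and 1.55 and 1.57 for input. None of the 4 was at 0. Beside the same shares over all genes, of 5 neural markers 1 was higher and 2 lower, of 5 fibroblast markers 0 higher (0 at an unadjusted p under 0.05 in limma) and 3 lower, and of 3 blood markers 2 higher and 1 lower, the highest of them Cd68 at 7.03 and 7.83 RPKM. Whether other cells in the culture contributed to Pol II at Prox1 was not tested.

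The genes most like each of the 3 were sought over 12 values, the log2 RPM of the 6 libraries at the strongest common peak and the log2 RPKM of the 6 libraries in the gene model, among the 867 genes with a common peak. Prox1 was nearest to Gdi2, Atoh8 and Abhd6, at Euclidean distances of 2.34 to 2.77, where the median gene was 4.74 away. Mylk3 was nearest to Npas3, Prss41 and Ankfn1 (2.13 to 2.21, median 6.17), and Atoh1 to Prss41, Npas3 and Mylk3 (2.39 to 2.69, median 5.52). Pol II in the gene body is among the 12 values, so a like Pol II ratio is part of how these genes were found.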

How the data were processed

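The authors aligned single-end reads to NCBI Build 37 (mm9; Bowtie 0.12.5 per the labels), kept reads with a single place and called SISSRs peaks per experiment against its input. Common Sox6 peaks are their list from both experiments. The deposited files hold read and peak positions, with no counts; score columns were not used. Repeated positions (2.96% to 7.88% of reads) were kept.

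Reads were counted here by 5′ end in 450 bp windows, gene models (GENCODE, longest model with a RefSeq name) and 1 kb on each side of starts, and scaled to mapped reads. Log2 values with 0.5 reads added were fitted with limma 3.58.1 (trend) in R 4.3.3, with Benjamini-Hochberg adjustment at 0.05, over genes with at least 20 input reads (starts: at least 5). A count model could have been run on these reads and was not run here. Peaks of a single experiment were tested in the other by exact binomial tests. The steps were run on simulated reads with a set spread, which need not match that of these libraries. A peak was assigned to the gene holding its centre, otherwise to the nearest gene. The binomial tests cover counting error only, while the SEs and adjusted p-values of limma rest on the spread between libraries.

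The members, lists and tests were chosen with earlier results of these data known. Named genes were the members, all genes within 100 kb, Actb, the control amplicon, the 3 most similar genes to each, and up to 4 per list by Pol II ratio or Sox6 peak; others named were chosen after their values were seen. A gene that this rule takes in is not reported here.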

Additional observations from a re-analysis of the deposited data

How the results depend on the processing

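Sox6 over input at the strongest peaks chose the genes, so its positive direction was fixed beforehand and tests nothing. Its size depended on the window. With a window of 1000 bp the log2 ratio was 5.58 at Prox1, 4.85 at Mylk3 and 4.76 at Atoh1, and with a window of 200 bp it was 5.30 at Mylk3. Leaving out each of the 4 libraries gave 6.31 to 7.30 at Prox1, 5.65 to 6.42 at Mylk3 and 6.03 to 6.24 at Atoh1. Pol II over input across Prox1 fell from 0.98 to 0.77 when log2 ratios were centred on the median of all genes, and lay between 0.89 and 1.07 with libraries left out. The same ranges were -1.87 to -0.94 for Mylk3 and -1.65 to 0.68 for Atoh1, whose sign is not settled. No common peak lay within 50 kb of Atoh1 (0 peaks).

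Of the neighbours, 2 had more Pol II in the gene body under each alternative that kept all libraries. At the starts, Vps35 and Orc6 were called higher under each of these alternatives, and 4921524J17Rik only with 500 bp on each side. The ratio in the body of Orc6 changed sign without Pol II replicate 1 (0.35), and was -1.62 without Pol II replicate 2. The ratio at the start of 4921524J17Rik turned to -0.0226 with a pseudocount equal in RPM, to -0.61 with centring and to -0.71 without Pol II replicate 2 (1.25 without Pol II replicate 1, and 1.64 with 500 bp on each side), and that in the body of Atoh8 turned to -0.0853 with centring. Centring moved the calls at starts from 8893 higher and 304 lower to 5576 and 2610, and those in gene bodies from 8026 and 5073 to 7130 and 6125. Starts called lower numbered 77 with 1 read added, 3017 with 0.1 reads and 3173 with a pseudocount equal in RPM. In the interval of the peak alone, 215 rather than 923 of the peaks called in replicate 1 only passed in replicate 2, and that of Prox1 still did (log2 ratio 4.49). The counts of the proneural, fibroblast, blood and neural lists changed with the library left out. They are not given, since such a fit holds no spread within the group left with 1 library. With no filter on input reads, 1 of 14 proneural genes had more Pol II.

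Samples of the same replicate number did not deviate together (correlation of deviations -0.02 at common peaks and -0.04 in gene bodies), and although the study's methods give each experiment an input of its own, the labels do not say that the numbers mark it, so whether they pair the samples was not settled. With the replicate number as a replicate block, the ratios are the same by construction (6.80 for Sox6 at Prox1) and only their errors differ; 8134 gene bodies were higher and 5244 lower, and 8523 starts were higher and 152 lower. Myl2 was then called lower (log2 ratio -1.27, limma adjusted p = 0.0127), which made 1 gene of the light chain list lower. The neighbours, the other list counts and the other genes recomputed with the block kept their side of the threshold.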
